A study of Mus musculus with 32 samples.

Results

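The 33 reactive astrocyte genes are 10 pan-reactive genes, 10 genes of the A1 set, 12 genes of the A2 set and Stat3. They were taken by name from published lists of genes that rise in reactive astrocytes, and no measured value of these libraries enters the rule. All 33 were listed among the 55291 genes of the tables of sorted astrocytes and O4 cells and among the 53700 genes of the microglia table, and 32 among the 17572 genes of the culture table, which does not list Slc10a6.

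Astrocytes respond to injury, infection and disease by becoming reactive: they enlarge, make more of the intermediate filaments GFAP and vimentin, and secrete complement, acute-phase proteins and cytokines. Cytokines of the interleukin-6 family, such as leukaemia inhibitory factor and oncostatin M, drive much of this through JAK kinases and the transcription factor STAT3. In the mouse, the pan-reactive set is shared between responses, the A1 set was described after an inflammatory stimulus and holds many interferon-response and antigen-presentation genes, and the A2 set was described after ischaemia. The sets are lists of transcripts and not cell types.

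RNA was sequenced in 32 libraries. All of the material carried TDP-43_Q331K, a variant of TDP-43, an RNA-binding protein of the nucleus, found in amyotrophic lateral sclerosis and used to model that disease. Sorting with ACSA gave astrocytes of cortices plus spinal cords from mice aged 3 months (4 libraries), 6 months (5 libraries) and 10 months (2 libraries). O4+ cells, which are of the oligodendrocyte lineage, were sorted from those tissues from mice aged 3 months (4 libraries) and 6 months (4 libraries). Cd11b+ microglia came from cortices only, at 3 and 10 months, with 3 and 4 libraries. Primary astrocytes grown for 14 days were replated and kept for 48 hours with 40 µM Omomyc or with vehicle, with 3 libraries each. Omomyc is a miniprotein made from the dimerisation domain of MYC that competes with MYC for its partner and for DNA. Mice lacking the transgene were not analysed here, and an age effect cannot be told apart from normal ageing. The sources used here do not name the transgene's promoter or say whether a library is 1 mouse or a pool, and p-values measure the spread between these libraries, which may in part be technical.

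Total counts were between 6151583 and 20763190 per astrocyte library, 9752907 and 18598533 per O4 library, 4145129 and 5612071 per microglia library and 30117025 and 37470972 per culture library. Levels are in CPM, counts scaled to library size with TMM factors, and changes are log2 fold changes ± SE from edgeR's quasi-likelihood test, with a call where the Benjamini-Hochberg adjusted p over all genes tested was under 0.05. Of 16 homeostatic astrocyte genes, the summed level was 36000 to 51500 CPM in the 11 astrocyte libraries, against 7790 to 9250 CPM in the O4 libraries. The astrocyte libraries also held transcripts of oligodendrocytes: a list of 10 markers summed to 21000 to 33400 CPM at 3 months, 15100 to 21600 CPM at 6 months and 14700 to 22800 CPM at 10 months, against 96700 to 184000 CPM in O4 libraries. In bulk libraries, fewer cells of a type and less RNA per cell cannot be told apart.

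At 3 months, 18 of the 33 genes were highest in the astrocyte sort, 10 in microglia and 5 in the O4 sort. The 18 include 4 genes with a mean under 1 CPM there (Slc10a6, Steap4, Tgm1 and Timp1) and the 5 include Sphk1, whose order at such levels is not read. The 5 also include H2-T23 (2.23 CPM, against 2.04 CPM in astrocytes and 2.02 CPM in microglia) and B3gnt5 (1.28 CPM, against 1.11 CPM in astrocytes). For both, the astrocyte and O4 libraries overlapped. The 10 include Clcf1, whose 0 in the other sorts is not read as absence because of an overlapping gene. By set, the astrocyte sort was highest for 7 of 10 pan-reactive, 4 of 10 A1 and 7 of 12 A2 genes. Microglia were highest for 5 of 10 A1 genes, among them the class I antigen-presentation genes H2-D1 and Psmb8. These are orders of mean CPM across tables made with different kits and are given side by side with no test. The share of all genes highest in each sort was not computed, so the counts are not read as a result about the members. Per length of transcript, in the authors' deposited TPM values, the leading genes in 3-month astrocytes were Vim at 175 ± 26.3 TPM, Gfap at 121 ± 25.6 TPM, Tm4sf1 at 53.2 ± 5.62 TPM and Stat3 at 40.3 ± 2.14 TPM (SD, n = 4). Serpina3n (33.6 ± 5.42 TPM), S100a10 (29.6 ± 7.13 TPM) and H2-D1 (29.2 ± 3.52 TPM) followed and did not differ beyond their spread. At 10 months Vim (286 and 376 TPM), Gfap (183 ± 60.6 TPM) and Tm4sf1 (92.4 ± 11.6 TPM) again led, and Stat3 (44.6 ± 1.57 TPM) and H2-D1 (44.3 ± 9.23 TPM) did not differ beyond their spread (SD, n = 2).

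**Figure D1:**
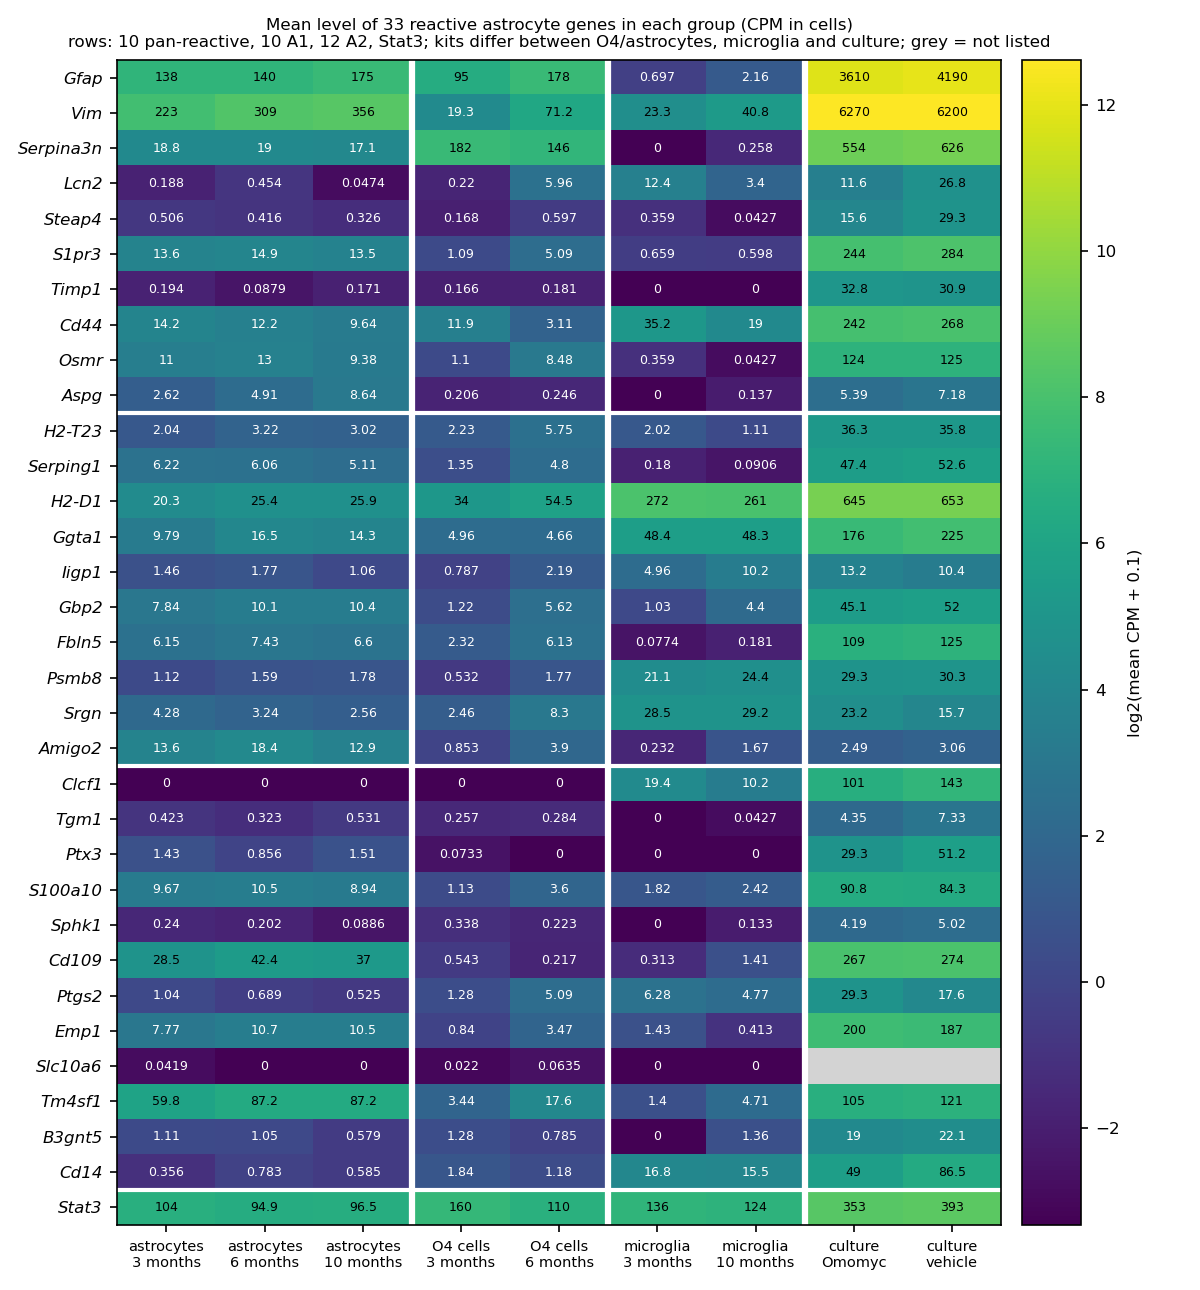
Mean CPM of the 33 genes (rows, by set) in the 9 groups of libraries (columns), coloured by log2(mean CPM + 0.1), with the mean CPM printed in each cell and grey for a gene that the culture table does not list. Gfap and Vim stand at 138 and 223 CPM in 3-month astrocytes and at 3610 to 6270 CPM in culture, and Lcn2, Steap4 and Timp1 are under 1 CPM in all astrocyte sorts.

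Several genes that are used to mark reactivity were near the limit of detection in freshly sorted astrocytes. Lcn2, a secreted iron-carrier binding protein, averaged 0.188 ± 0.217, 0.454 ± 0.344 and 0.0474 ± 0.067 CPM at 3, 6 and 10 months (SD, n = 4, 5 and 2). Timp1, an inhibitor of matrix metalloproteinases, averaged 0.194 ± 0.328, 0.0879 ± 0.0824 and 0.171 ± 0.108 CPM, and Slc10a6, a steroid sulphate transporter, did not exceed a mean of 0.0419 CPM. Steap4, a metalloreductase, averaged 0.506 ± 0.15 CPM at 3 months. Clcf1, a cytokine of the interleukin-6 family, was listed at 0 in all 19 astrocyte and O4 libraries and at 10.2 to 19.4 CPM on average in microglia. In GENCODE vM21 Clcf1 overlaps another gene on the same strand, so its 0 is not read as absence. Aspg and Ggta1 also overlap a gene on the same strand there (Mir3073a and Gm43761), and the effect on their counts was not tested. Of the 33 genes, 5 passed the filter on low counts in no age comparison of sorted cells.

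Gfap, the main intermediate filament gene of astrocytes (chr11:102887336-102900912, GRCm38, minus strand), did not pass the test at any age. It was at 107, 155, 121 and 169 CPM at 3 months, at 141, 93.9, 168, 134 and 161 CPM at 6 months, and at 215 and 135 CPM at 10 months. The ages overlapped, and the 215 CPM library was the highest of all 11. The change was 0.37 ± 0.22 at 10 over 3 months (edgeR adjusted p = 0.24) and -0.01 ± 0.17 at 6 over 3 months (edgeR adjusted p = 0.969).

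At 10 over 3 months, 4 of 25 tested members were called higher in astrocytes and 0 lower, against 11.5% of all 16189 genes called higher. The median change was 0.12 over the members and 0.02 over all genes. By set, 2 of 7 pan-reactive, 1 of 10 A1 and 1 of 7 A2 genes were called. The members that rose were Aspg, Vim, Ggta1 and Tm4sf1. In the same libraries 5 of 10 oligodendrocyte markers were called lower, and 7 markers of choroid plexus and ependyma summed to 2200 to 3710 CPM at 3 months, 1470 to 1810 CPM at 6 months and 1380 to 1440 CPM at 10 months. The members of that list moved both ways, with 2 of 7 called higher and 3 lower at 10 over 3 months (median 0.32), and 3 higher and 2 lower at 6 over 3 months (median 0.26). Their part in the changes of the members was not tested.

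Aspg, which encodes an asparaginase (chr12:112106679-112127559, GRCm38, plus strand), had the largest change of the 4. It was at 2.33, 3.53, 1.45 and 3.17 CPM at 3 months, at 1.84, 7.00, 4.31, 7.05 and 4.33 CPM at 6 months, and at 9.29 and 7.99 CPM at 10 months. Both 10-month libraries were above every other astrocyte library. The change at 10 over 3 months was 1.71 ± 0.36 (edgeR adjusted p = 0.00366), and it was called under every alternative run. At 6 over 3 months the change was 0.85 ± 0.31 and did not pass (edgeR adjusted p = 0.0739), while DESeq2 (0.87, adjusted p = 0.0376), edgeR with no filter on low counts (adjusted p = 0.00396) and edgeR without the first 6-month library (1.04, adjusted p = 0.0165) called it.

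Vim encodes vimentin, the intermediate filament of immature and reactive astrocytes (chr2:13573927-13582826, GRCm38, plus strand). It was at 180, 239, 249 and 224 CPM at 3 months, at 282, 224, 315, 334 and 388 CPM at 6 months, and at 402 and 310 CPM at 10 months. The 10-month libraries were above all 3-month libraries, and those of 6 months overlapped with both. The change was 0.69 ± 0.17 at 10 over 3 months (edgeR adjusted p = 0.00785) and 0.43 ± 0.13 at 6 over 3 months (edgeR adjusted p = 0.0395). Without the first 10-month library, which was also the one with the highest Gfap, the change at 10 over 3 months was 0.49 and the adjusted p 0.155. The call at 6 over 3 months was lost with the replicate number as a block (0.34, edgeR adjusted p = 0.0956) and without the first or the fourth 3-month or the third, the fourth or the fifth 6-month library.

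Ggta1 encodes the galactosyltransferase that makes the alpha-Gal epitope in mice (chr2:35400179-35463231, GRCm38, minus strand). It was at 7.88, 11.1, 11.6 and 8.66 CPM at 3 months, at 13, 17.9, 18.3, 15.4 and 18 CPM at 6 months, and at 14.6 and 13.9 CPM at 10 months. All libraries of 6 and 10 months were above all those of 3 months. The change at 6 over 3 months was 0.74 ± 0.14 (edgeR adjusted p = 0.00322), called under every alternative run, and at 10 over 3 months it was 0.58 ± 0.18 (edgeR adjusted p = 0.0269).

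Tm4sf1, a small membrane protein of the tetraspanin-like family that is also abundant in endothelium, was at 53.2, 58.1, 67.4 and 60.3 CPM at 3 months, at 70.2, 67.9, 84.1, 87.0 and 127 CPM at 6 months, and at 94.5 and 80.0 CPM at 10 months. As with Ggta1, no library of the later ages was as low as the highest of 3 months. The change was 0.57 ± 0.18 at 10 over 3 months (edgeR adjusted p = 0.0288) and 0.51 ± 0.14 at 6 over 3 months (edgeR adjusted p = 0.0225). The 10 endothelial markers summed to 188 to 352 CPM at 3 months, 146 to 303 CPM at 6 months and 111 to 185 CPM at 10 months, and 4 of the 10 were called lower at 10 over 3 months. The part of vessel cells in the change of Tm4sf1 was not tested. The calls of Tm4sf1 and Ggta1 at 10 over 3 months were both lost without the first or the fourth 3-month library and without either 10-month library, and that of Tm4sf1 at 6 over 3 months without the first or the fourth 3-month library.

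At 6 over 3 months, 4 of 25 members were called higher and 0 lower, against 6.28% of all genes called higher, with a median of 0.23 over the members and 0.00 over all genes. The comparison shares its 3-month libraries with that of 10 months. The fourth gene was Amigo2, an adhesion protein of the A1 set, at 20.3, 19.4, 16.7, 17.0 and 18.3 CPM at 6 months, against 12.4, 16.2, 14.2 and 11.5 CPM at 3 months. The 2 ages did not overlap, and the change was 0.41 ± 0.13 (edgeR adjusted p = 0.041), a call lost in 7 of the 9 fits that left out a library. Both 10-month libraries, at 13.1 and 12.7 CPM, lay inside the range of 3 months, with a change of -0.04 at 10 over 3 months.

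At 10 over 6 months, 0 of 25 members were called, against 0.908% of all genes called in either direction by edgeR. At an unadjusted p under 0.05 there were 2727 genes and 3 members, Amigo2 (-0.45), Aspg (0.86) and Osmr (-0.44). DESeq2 called 609 genes.

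Among the members that did not pass at 10 over 3 months, Serpina3n, a serine protease inhibitor of the acute-phase response, was at 20.2, 14.6, 17.8 and 22.5 CPM at 3 months, at 16.0, 17.4, 18.9, 18.8 and 24.0 CPM at 6 months, and at 20.9 and 13.4 CPM at 10 months. Stat3 was at 109, 94.2, 101 and 111 CPM at 3 months, at 92.4, 86.2, 97.5, 95.2 and 103 CPM at 6 months, and at 98.3 and 94.6 CPM at 10 months. Both genes overlapped between all ages, with changes of -0.13 and -0.09 at 10 over 3 months. Cd44, the hyaluronan receptor, was at 10.7 and 8.57 CPM at 10 months, below all 3-month libraries at 13 to 15.3 CPM, with a change of -0.54 that did not pass (edgeR adjusted p = 0.0931) but was called in a fit of only the 2 ages (-0.57, edgeR adjusted p = 0.022). B3gnt5, a glycosyltransferase of glycolipid synthesis, was at 0.663 and 0.494 CPM at 10 months, against 0.73 to 1.56 CPM at 3 months, also below without overlap and not called (-0.98 ± 0.52, edgeR adjusted p = 0.186). Psmb8 (1.57 and 1.99 CPM at 10 months, against 0.876 to 1.34 CPM at 3 months) and Emp1 (9.97 and 11 CPM, against 7.1 to 8.61 CPM) were above without overlap and not called. Of all tested genes, 22.7% had both 10-month libraries above all those of 3 months and 22.8% had both below, so that such a separation was common in this comparison. For the other comparisons the share of all genes without overlap was not computed, and a lack of overlap there only describes the libraries.

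**Figure D2:**
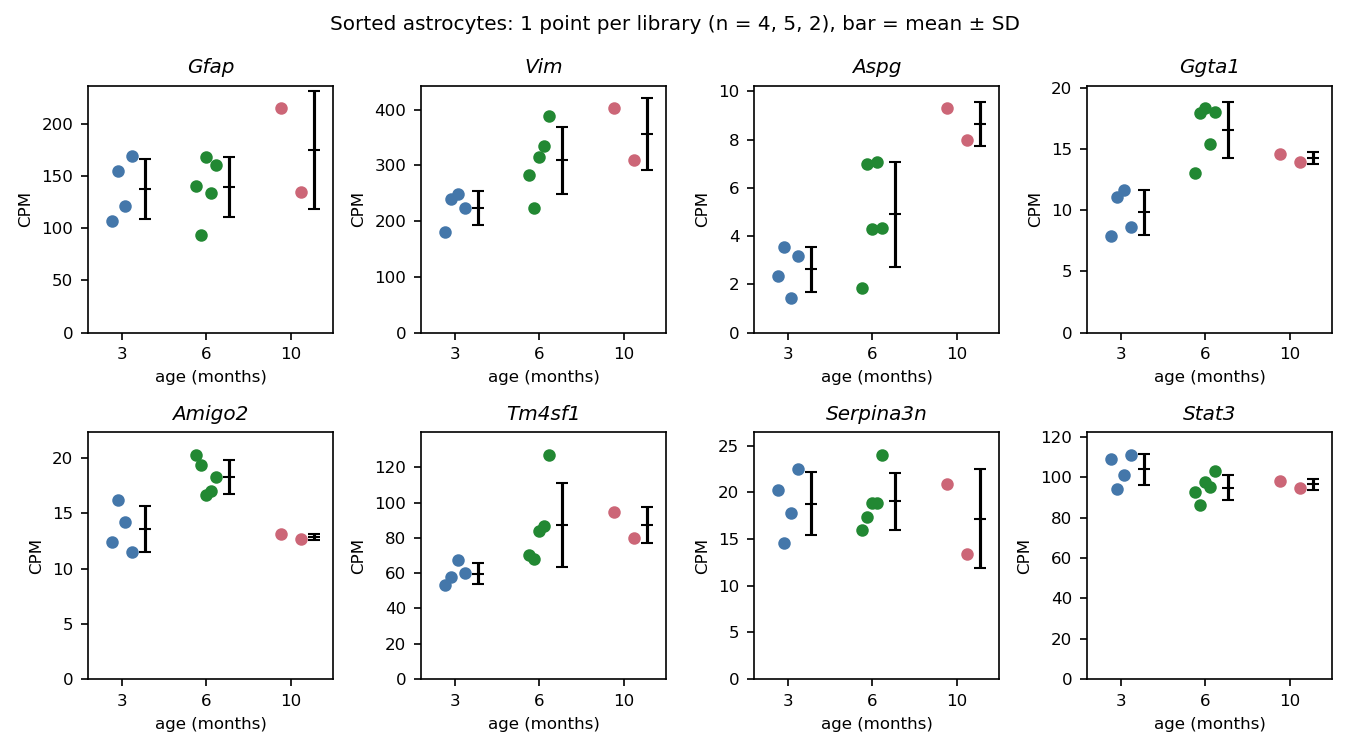
CPM of 8 members in sorted astrocytes against age in months, 1 point per library (n = 4, 5 and 2), with the mean ± SD as a bar beside the points. Aspg is highest in both 10-month libraries at 9.29 and 7.99 CPM, Ggta1 is above its 3-month range at both later ages, and Gfap, Serpina3n and Stat3 overlap between the ages.

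The genes around these lists are read against the 11.5% of all genes called higher and the 11.2% called lower at 10 over 3 months. Of 10 tested reactive genes outside the 33, the complement genes C3 (1.70 ± 0.30, edgeR adjusted p = 0.00163) and C4b (1.06 ± 0.18, edgeR adjusted p = 0.00102) rose at 10 over 3 months and 0 fell. C3 averaged 7.97 ± 2.66, 18.7 ± 4.25 and 25.5 ± 11.8 CPM at 3, 6 and 10 months, and C4b 76.1 ± 16.1, 117 ± 14.7 and 157 ± 51.6 CPM (SD, n = 4, 5 and 2). Of 16 tested genes of the STAT3 pathway, 4 rose and 3 fell. Socs3, the feedback inhibitor that STAT3 induces, averaged 4.62 ± 0.749, 6.80 ± 1.79 and 14.7 ± 1.40 CPM at the 3 ages and rose by 1.71 ± 0.22 (edgeR adjusted p = 0.000192). Pim1, a kinase gene induced by STAT3, rose by 1.07 ± 0.20, and Lifr, the receptor of leukaemia inhibitory factor, had a change of -0.71 ± 0.11, with 73.5 ± 4.19 CPM at 10 months and 122 ± 9.65 CPM at 3 months.

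Of 22 tested genes of inducers and their receptors, 2 rose and 2 fell at 10 over 3 months, a share in each direction no higher than that of all genes. Il1rap, the accessory chain of the interleukin-1 receptor, had a change of -1.18 ± 0.17 and Tgfbr1, a receptor of TGF-beta, one of -0.80 ± 0.14, and C1qa, a complement gene of microglia, one of 1.65 ± 0.33. Markers of microglia summed to 43.5 to 47.3 CPM at 3 months, 49.2 to 71.9 CPM at 6 months and 56.6 to 61.0 CPM at 10 months, against 30600 to 56600 CPM in the microglia sort, and 4 of 9 tested were called higher at 10 over 3 months. Their part in the change of C3, which microglia also express, was not tested. Of 16 homeostatic astrocyte genes, S100b rose by 0.49, while the potassium channel gene Kcnj10 had a change of -0.46 and the glutamate transporter gene Slc1a2 one of -0.63.

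The O4 sort gave the widest change of these genes with age. At 6 over 3 months, 14 of 23 tested members were called higher, against 14.9% of all 14050 genes, and 2 were called lower, against 9.46% of all genes. The median change was 1.78 over the members and 0.02 over all genes. By set, 7 of 10 A1, 4 of 6 A2 and 3 of 6 pan-reactive genes rose, and Cd44 and Stat3 fell. Of the 16 calls, 14 were kept under every alternative run.

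Markers of blood vessels moved in the same libraries. The 10 endothelial markers summed to 302, 542, 824 and 625 CPM at 6 months, against 84.0, 110, 86.3 and 98.0 CPM at 3 months. All 10 were called higher, with a median change of 2.77, none of them was at 0 in any O4 library, and Pecam1, for example, averaged 47.3 ± 13.6 CPM at 6 months and 7.62 ± 1.57 CPM at 3 months (SD, n = 4 each). Of the markers of mural cells and fibroblasts, 4 of 6 tested rose, with sums of 251 to 503 CPM at 6 months, against 61.9 to 121 CPM at 3 months. The homeostatic astrocyte genes summed to 7790 to 9250 CPM at 6 months, against 7810 to 8450 CPM at 3 months, with 2 of 16 called higher, and the microglial markers summed to 73.8 to 92.4 CPM, against 62.9 to 123 CPM. Of 8 neuronal markers 4 rose and 0 fell (median 1.02), with sums of 146 to 253 CPM, against 162 to 182 CPM, and of 10 oligodendrocyte markers 2 rose and 5 fell (median -0.29), with sums of 119000 to 184000 CPM, against 96700 to 124000 CPM. Several members are also expressed by endothelial cells, and the part of vessel cells, neurons and oligodendrocytes in the changes of the O4 sort was not tested.

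Among receptors, Osmr, the receptor of oncostatin M, was at 7.90, 8.16, 12.2 and 5.65 CPM at 6 months, against 0.322, 1.18, 1.23 and 1.67 CPM at 3 months. Every 6-month library was above every 3-month one, and the change was 3.04 ± 0.38 (edgeR adjusted p = 0.000556). S1pr3, a receptor of sphingosine 1-phosphate, was at 4.40, 3.85, 6.57 and 5.53 CPM at 6 months, against 0.483, 0.935, 1.54 and 1.41 CPM at 3 months, and rose by 2.30 ± 0.33 (edgeR adjusted p = 0.00112).

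Among genes of the cell surface, filaments and matrix, Tm4sf1 was at 12.7, 14.1, 18.7 and 25.0 CPM at 6 months, against 3.06, 2.87, 4.07 and 3.78 CPM at 3 months, and rose by 2.44 ± 0.23 (edgeR adjusted p = 0.000222). Vim was at 39.9, 74.0, 83.5 and 87.3 CPM, against 15.7, 18.1, 20.0 and 23.3 CPM, and rose by 1.98 ± 0.24 (edgeR adjusted p = 0.000924). Neither gene overlapped between the ages. Amigo2 was at 2.60, 4.77, 4.84 and 3.37 CPM, against 0.966, 0.748, 0.554 and 1.14 CPM, Emp1, an epithelial membrane protein, at 3.23, 3.38, 3.78 and 3.49 CPM, against 0.564, 0.561, 1.36 and 0.88 CPM, and S100a10, the annexin A2 partner, at 2.87, 3.45, 3.28 and 4.81 CPM, against 0.805, 0.499, 1.36 and 1.85 CPM. These 3 genes did not overlap between the ages either, with adjusted p between 0.00088 and 0.00708 in edgeR. The share of all genes that did not overlap between the ages was not computed in the O4 sort. Fbln5, a protein of elastic fibres, was at 2.15 to 10.1 CPM at 6 months, against 1.05 to 3.39 CPM at 3 months. Its ages overlapped, and its change of 1.49 ± 0.48 (edgeR adjusted p = 0.0489) lost the call under several alternatives.

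Among secreted and inflammatory genes, Ptgs2, the inducible prostaglandin synthase COX-2, was at 5.65, 4.31, 6.65 and 3.73 CPM at 6 months, against 1.45, 1.25, 1.36 and 1.06 CPM at 3 months, with a change of 2.09 ± 0.25 (edgeR adjusted p = 0.000415). Srgn, the granule proteoglycan serglycin, was at 3.50, 7.36, 12.5 and 9.86 CPM, against 1.69, 2.99, 2.09 and 3.08 CPM, and Serping1, the inhibitor of complement C1, at 3.05, 3.58, 5.58 and 6.98 CPM, against 0.966, 0.748, 1.42 and 2.29 CPM. None of these overlapped between the ages. Of the interferon-responsive genes, Gbp2, a guanylate-binding protein, was at 2.33, 5.17, 7.39 and 7.58 CPM, against 1.05, 1.37, 0.801 and 1.67 CPM, and rose by 2.30 ± 0.39 (edgeR adjusted p = 0.00255). Psmb8, a subunit of the immunoproteasome, was at 1.35 to 2.38 CPM, against 0.37 to 0.644 CPM, and rose by 1.84 ± 0.32. The class I gene H2-T23 was at 1.97 to 9.02 CPM, against 1.48 to 2.90 CPM, with overlap, and its rise of 1.46 ± 0.42 lost the call with the replicate block and when any of several libraries was left out, while H2-D1 (0.77, edgeR adjusted p = 0.0686) and Iigp1 (1.57) did not pass. DESeq2 called H2-D1 (adjusted p = 0.0164), edgeR with no filter on low counts called Iigp1 (adjusted p = 0.00169), and edgeR without the first 6-month library called both (H2-D1 adjusted p = 0.0167, Iigp1 adjusted p = 0.000492). Gbp2, Iigp1, H2-D1, H2-T23 and Serpina3n belong to families of near-identical genes, and the sources used here do not say how reads shared with relatives were counted.

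Cd44 and Stat3 went the other way. Cd44 was at 1.08, 3.98, 4.02 and 3.37 CPM at 6 months, against 11.8, 12.1, 14.2 and 9.32 CPM at 3 months, a change of -1.82 ± 0.31 (edgeR adjusted p = 0.00297) with no overlap. Markers of oligodendrocyte precursors fell for 2 of 6 genes tested, with sums of 316 to 564 CPM at 6 months, against 448 to 817 CPM at 3 months, and their part in the change of Cd44 was not tested. Stat3 was at 118, 124, 101 and 97.8 CPM, against 171, 138, 168 and 162 CPM, a change of -0.44 ± 0.11 (edgeR adjusted p = 0.0153), also without overlap. An opposite-strand neighbour, Stat5a, overlaps Stat3, and the sources used here do not say whether counting used the strand.

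Gfap and Serpina3n did not pass in the O4 sort. Gfap was at 82.2, 284, 128 and 216 CPM at 6 months, against 72.2, 83.2, 97.0 and 128 CPM at 3 months, with overlap between the ages (1.0 ± 0.38, edgeR adjusted p = 0.0959), and was called without the first 6-month library (1.24, edgeR adjusted p = 0.0348). Serpina3n varied widely within an age, with 180, 238, 62.5 and 102 CPM at 6 months, against 327, 30.3, 227 and 143 CPM at 3 months. Lcn2 was under the count filter, yet a single 6-month library held 20.7 CPM, against 0.464 to 2.05 CPM in the others of that age and 0.0616 to 0.561 CPM at 3 months.

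**Figure D3:**
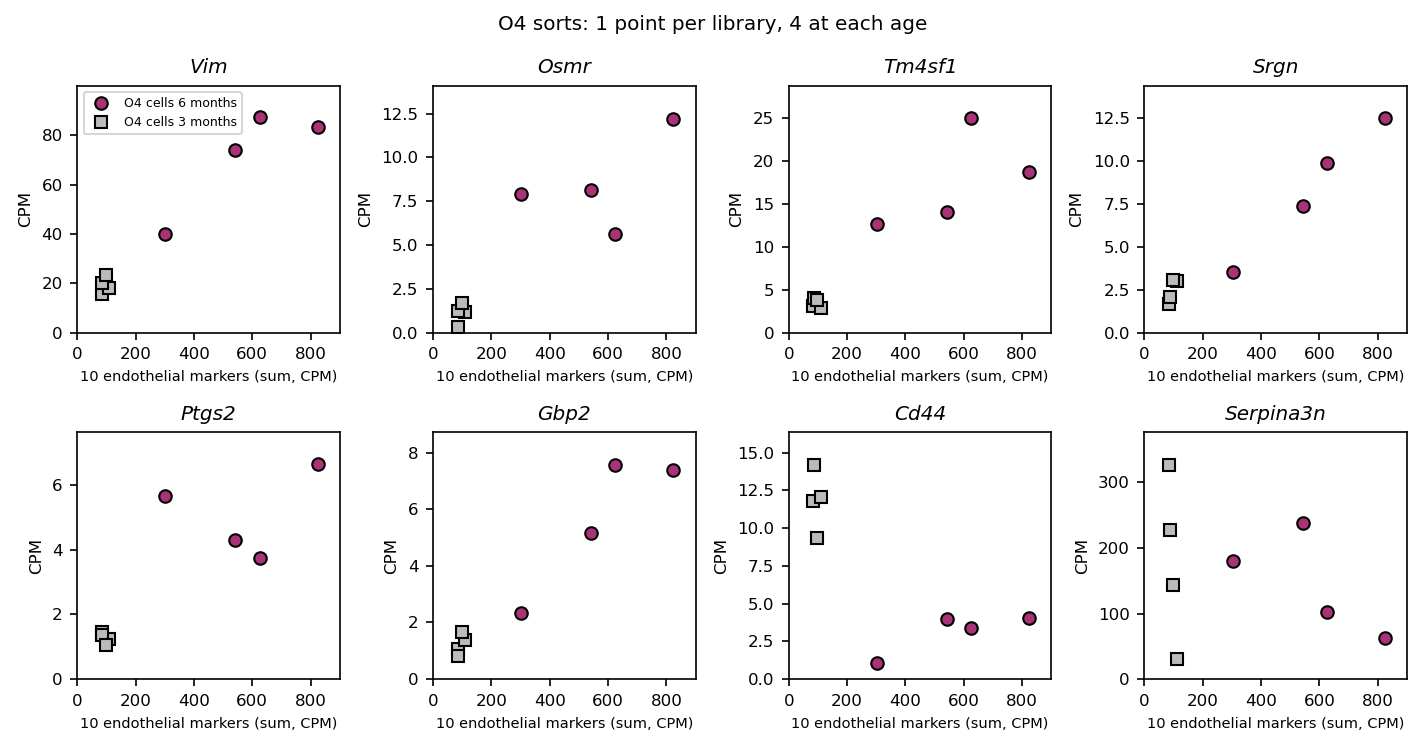
CPM of 8 members in the O4 libraries against the summed CPM of 10 endothelial markers, 1 point per library, with 4 libraries of 6 months (circles) and 4 of 3 months (squares). The 6-month libraries hold 302 to 824 CPM of endothelial markers and the 3-month libraries 84.0 to 110 CPM; Vim, Osmr, Tm4sf1, Srgn, Ptgs2 and Gbp2 are higher in the 6-month libraries, Cd44 is lower, and Serpina3n overlaps.

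Genes of the same pathways were read against the same shares in the O4 sort. Of 16 tested genes of the STAT3 pathway 6 rose and 1 fell, among them Il6ra, the interleukin-6 receptor (1.64 ± 0.21), and Ptpn11, which encodes the phosphatase SHP2 (0.83 ± 0.14), with Jak1 lower (-0.27 ± 0.07). Of 22 inducers and receptors 8 rose and 1 fell, led by Il1r1, the interleukin-1 receptor, which averaged 7.95 ± 2.07 CPM at 6 months, against 0.860 ± 0.417 CPM at 3 months (SD, n = 4 each; change 3.30 ± 0.34, edgeR adjusted p = 0.000262), and Tgfbr2 (1.95 ± 0.20). Of 8 other reactive genes 5 rose, led by Cp, the copper carrier ceruloplasmin (1.88 ± 0.17), and the small heat shock gene Hspb1 (2.75 ± 0.40).

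The promoters of 5 members are shown because these genes were among those called with the smallest p in the comparisons of age. The Omomyc fit with the replicate number as a block was not used for this choice, and the fit without it called 0 members. The 5 genes also held at least 1 of 4 short motifs, searched on both strands. These were a STAT site (TTCNNNGAA), an interferon element (GAAA, any 2 bases, GAAA), an E-box (CACGTG) and an AP-1 site (TGANTCA). RefSeq windows of 300 bases around the start (GRCm38.p6) were matched for 27 of the 33 genes. Of all 32851 such windows, 8.30% held the STAT letters, 3.44% the interferon letters, 7.15% the E-box and 7.81% the AP-1 letters. Of the 35 windows of the 27 genes, 7, 6, 3 and 5 held these letters in the same order, in 6, 6, 2 and 4 genes. A match is a description of the letters and not of binding. Each window is written 5′ to 3′ along its gene, with the matches in capitals.

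Tm4sf1: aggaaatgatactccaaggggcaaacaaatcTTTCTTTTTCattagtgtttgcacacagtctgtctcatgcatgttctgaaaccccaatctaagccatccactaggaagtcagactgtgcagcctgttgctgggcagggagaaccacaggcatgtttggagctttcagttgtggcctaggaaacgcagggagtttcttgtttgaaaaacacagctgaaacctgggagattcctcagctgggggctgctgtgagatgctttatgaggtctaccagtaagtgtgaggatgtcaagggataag
Ptgs2: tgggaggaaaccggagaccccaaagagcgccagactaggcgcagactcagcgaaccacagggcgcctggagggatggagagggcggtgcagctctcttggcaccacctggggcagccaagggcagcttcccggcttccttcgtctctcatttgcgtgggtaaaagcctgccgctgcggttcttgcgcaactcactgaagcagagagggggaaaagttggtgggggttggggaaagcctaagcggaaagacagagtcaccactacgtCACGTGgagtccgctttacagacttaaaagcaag
Osmr: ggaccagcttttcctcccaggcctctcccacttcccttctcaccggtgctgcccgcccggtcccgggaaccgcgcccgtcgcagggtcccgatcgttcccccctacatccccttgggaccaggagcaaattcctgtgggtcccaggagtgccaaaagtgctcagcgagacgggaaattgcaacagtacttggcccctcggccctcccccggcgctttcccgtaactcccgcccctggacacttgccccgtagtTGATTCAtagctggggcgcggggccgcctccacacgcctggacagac
Emp1: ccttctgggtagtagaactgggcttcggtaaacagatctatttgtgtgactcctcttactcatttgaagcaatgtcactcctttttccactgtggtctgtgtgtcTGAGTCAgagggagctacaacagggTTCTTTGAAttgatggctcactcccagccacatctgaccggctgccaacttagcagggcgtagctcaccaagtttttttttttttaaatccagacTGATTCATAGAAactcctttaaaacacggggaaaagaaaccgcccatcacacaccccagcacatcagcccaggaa
Gbp2: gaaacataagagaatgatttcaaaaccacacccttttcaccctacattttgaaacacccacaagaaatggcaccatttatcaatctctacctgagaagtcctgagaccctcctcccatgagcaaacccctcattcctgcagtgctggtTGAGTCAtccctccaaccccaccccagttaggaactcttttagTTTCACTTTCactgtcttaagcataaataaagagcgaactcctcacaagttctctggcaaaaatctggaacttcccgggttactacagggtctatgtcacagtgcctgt

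The Tm4sf1 window (chr3:57301939-57302238, minus strand) holds an interferon element, and that of Ptgs2 (chr1:150099781-150100080, plus strand) an E-box, the sequence to which MYC and MAX bind as a pair. The Osmr window (chr15:6874264-6874563, minus strand) holds an AP-1 site. The Emp1 window (chr6:135362681-135362980, plus strand) holds 2 STAT sites and 2 AP-1 sites, with 1 of each overlapping so that they appear as a single run of capitals. Another window of Emp1 (chr6:135367243-135367542, plus strand) holds 0 matches, and the window with the most matches is shown. The Gbp2 window (chr3:142620413-142620712, plus strand) holds an AP-1 site followed by an interferon element.

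The astrocyte and O4 libraries of 3 and 6 months were made with the same kit and were fitted together. At 3 months, 16 of 27 tested members were higher in astrocytes than in O4 cells, against 34.2% of all 16363 genes, and 4 were lower, against 30.8%. Cd109, a GPI-anchored protein that binds TGF-beta, had the largest difference of the members at 5.77, with 25.6 to 31.3 CPM in astrocytes and 0 to 0.88 CPM in O4 cells. Tm4sf1 (4.14), Ptx3 (4.09), Amigo2 (4.03), S1pr3 (3.63), Aspg (3.60), Vim (3.56), Osmr (3.32), Emp1 (3.20) and S100a10 (3.13) followed. Gbp2 (2.72), Serping1 (2.24), Fbln5 (1.41), Psmb8 (1.1), Ggta1 (0.99) and Srgn (0.82) were also higher, and the call of Srgn was lost with the replicate block and when any of 5 libraries was left out. Lower in astrocytes were Serpina3n (-3.25), the lipopolysaccharide co-receptor gene Cd14 (-2.53), H2-D1 (-0.72) and Stat3 (-0.60). Gfap did not pass, at 0.56 (edgeR adjusted p = 0.127), with 138 ± 28.7 CPM in astrocytes and 95.0 ± 24.0 CPM in O4 cells (SD, n = 4 each), but was called in a fit of only the 2 groups (0.59, edgeR adjusted p = 0.0223), as were Cd44 (0.30) and Iigp1 (1.01).

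At 6 months, 13 members were higher in astrocytes, against 36.6% of all genes, and 7 were lower, against 33.4%. Those higher were Cd109 (7.69), Aspg (4.30), Tm4sf1 (2.30), Amigo2 (2.19), Vim (2.09), Cd44 (1.95), Ggta1 (1.81), Emp1 (1.61), S100a10 (1.55), S1pr3 (1.55), Gbp2 (0.83), Osmr (0.59) and Ptx3, which was at 0.263 to 1.60 CPM in astrocytes and at 0 in all 4 O4 libraries, so that no fold is given. Those lower were Serpina3n (-2.96), Ptgs2 (-2.90), Lcn2 (-3.78), Srgn (-1.41), H2-D1 (-1.12), H2-T23 (-0.85) and Stat3 (-0.24). The call of Lcn2 was lost without the single O4 library of high Lcn2 (-1.29, edgeR adjusted p = 0.114). That of H2-T23 was lost with the replicate block (edgeR adjusted p = 0.0695) and without the third or the fourth O4 library, and that of Stat3 with no filter on low counts (edgeR adjusted p = 0.115) and without the first or the second O4 library. The call of Osmr was lost with the replicate block (edgeR adjusted p = 0.0565) and without the third or the fifth astrocyte or the fourth O4 library. Without the first O4 library, Gfap was called lower in astrocytes (-0.61, edgeR adjusted p = 0.0378).

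The age effects of the sorts were set against each other in the same fit. The change at 6 over 3 months was lower in astrocytes than in O4 cells for 12 of 27 members, against 9.97% of all genes, and higher for 2, against 6.44%. The largest difference was that of Osmr (-2.73, edgeR adjusted p = 5.5e-05), which was at 10.1 to 16.8 CPM at 6 months and 10.6 to 11.6 CPM at 3 months in astrocytes. Vim, called higher with age in both sorts, differed by -1.46, Tm4sf1 by -1.83 and Amigo2 by -1.84. The changes that were higher in astrocytes were those of Ggta1 (0.82 ± 0.23, edgeR adjusted p = 0.0173), which was at 4.31 to 5.17 CPM at 6 months and 4.05 to 5.98 CPM at 3 months in O4 cells, and of Cd44 (1.67 ± 0.36, edgeR adjusted p = 0.00318). The 10 endothelial markers all had lower changes in astrocytes, with a median difference of -3.34, and their part in these differences was not tested.

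**Figure D4:**
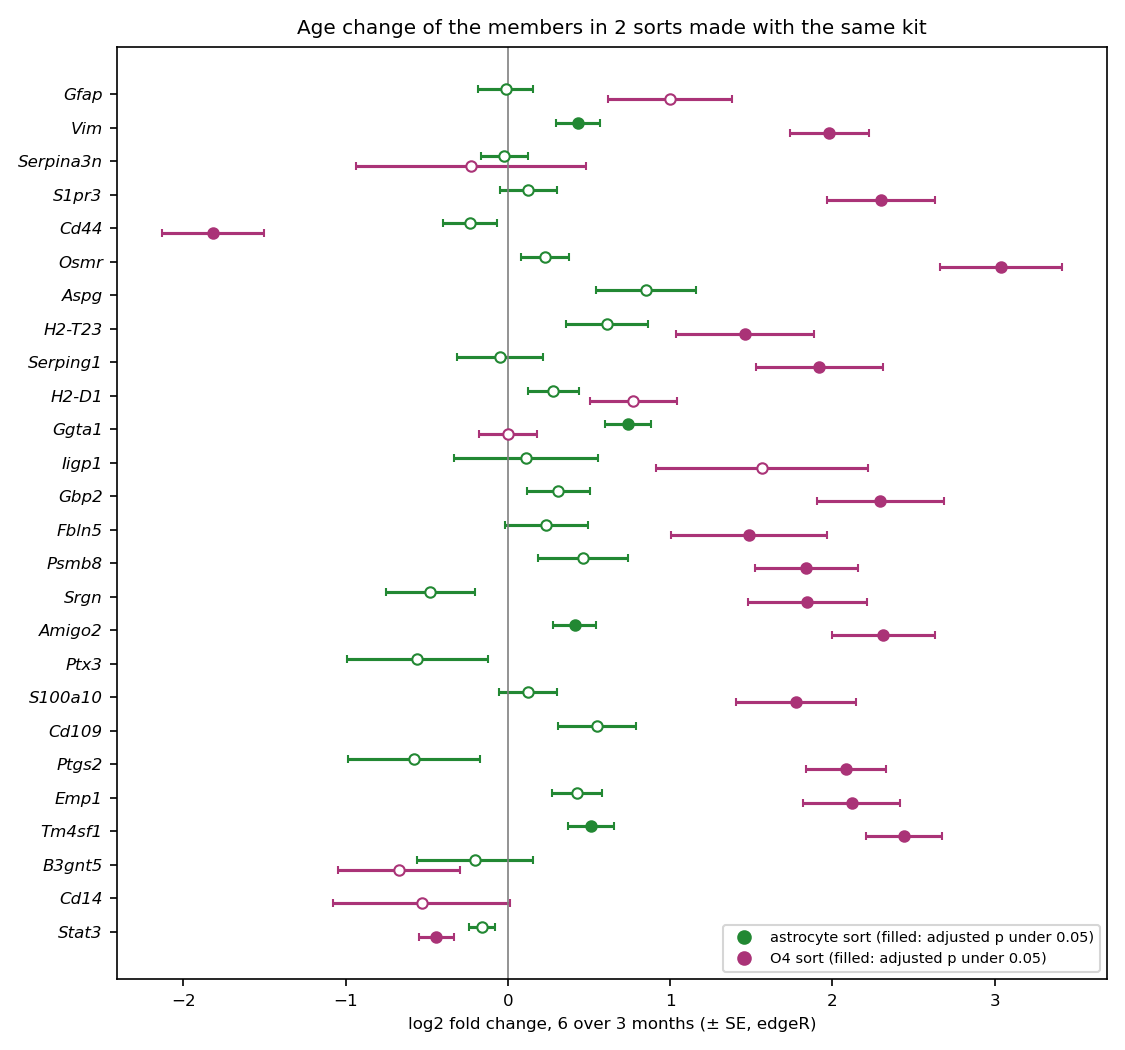
Log2 fold change at 6 over 3 months (± SE) of each tested member in the astrocyte sort (upper point of a row) and in the O4 sort (lower point), filled where the edgeR adjusted p is under 0.05. The O4 changes of 14 members lie above 0 and are filled, up to 3.04 for Osmr, while the 4 filled astrocyte changes lie between 0.41 and 0.74.

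In microglia at 10 over 3 months, 0 of 15 tested members were called by edgeR, against 3.21% of all 12320 genes called in either direction. At an unadjusted p under 0.05 there were 2085 genes and 4 members, Lcn2 (-1.88), Vim (0.79), Cd44 (-0.92) and Clcf1 (-0.93), and DESeq2 called 748 genes and 0 members. Lcn2 was at 1.65, 2.19, 3.08 and 6.67 CPM at 10 months, against 27.1, 4.65 and 5.57 CPM at 3 months, and Cd44 at 23.6, 21.0, 13.4 and 18 CPM, against 62.5, 25.2 and 17.9 CPM. Both were highest in the first 3-month library, in which 6 markers of neutrophils and monocytes summed to 1920 CPM, against 364 and 637 CPM in the others of that age and 438 to 708 CPM at 10 months. The part of these cells in the levels of Lcn2 and Cd44 was not tested. Without the first 3-month library Vim (1.32, edgeR adjusted p = 0.0227) and Gbp2 (5.0, edgeR adjusted p = 0.0446) were called higher. Vim was at 46.3, 35.8, 37.3 and 43.9 CPM at 10 months, against 37.4, 19.7 and 12.8 CPM at 3 months, and Gbp2 at 5.17, 3.10, 5.07 and 4.27 CPM, against 2.87, 0.221 and 0 CPM. Gfap was under 5 CPM in every microglia library.

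Most of these transcripts stood higher in the ranking of genes in cultured astrocytes than in sorted ones. Among the 17204 genes listed in all 4 tables, 30 of 31 members other than Clcf1 ranked higher by level in vehicle cultures than in 3-month sorted astrocytes, and the exception was Amigo2, at percentile 27.2 in culture and 51.0 in sorted cells. Lcn2 was at percentile 57.4 in culture and 9.1 in sorted cells, and Timp1 at percentile 60.5 in culture and 9.3 in sorted cells. The kits differ, so this is a description of ranks with no test. The culture table lists the fewest genes, and no member listed there was at 0 in a culture library. Members can thus enter the ranking through the culture. The share of all 17204 genes that ranked higher in culture was not computed, so the count is not read as a result about the members.

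The culture comparison asked how these genes respond when MYC is inhibited by Omomyc. In the fit without the replicate number, 0 of 32 members were called, against 0.0186% of all 16119 genes called in either direction by edgeR. At an unadjusted p under 0.05 there were 1022 genes and 9 members, and DESeq2 called 97 genes and 2 members, Lcn2 (-1.21) and Ptx3 (-0.81). Libraries of the same replicate number deviated together (correlations of 0.432 to 0.682), so the number was also used as a block. The sources used here do not say what same-numbered libraries share, and the calls with the block rest on this choice. In the fit with the replicate number as a block, 2 members rose, against 2.23% of all genes, and 7 fell, against 1.84% of all genes. The median change was -0.20 over the members. In all pairs, 18 of 32 members were lower with Omomyc, against 21.3% of all genes, and 4 were higher, against 23% of all genes.

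The pan-reactive genes Lcn2 and Steap4 fell. Lcn2 was at 12.1, 10.4 and 12.3 CPM with Omomyc, against 35.2, 24.2 and 21.1 CPM with vehicle, a change of -1.18 ± 0.13 (edgeR with the block, adjusted p = 0.00416) with no overlap. Steap4 was at 20.1, 13.7 and 13 CPM, against 41.5, 26.5 and 19.8 CPM, lower in each pair although the groups overlapped (-0.87 ± 0.10, edgeR with the block, adjusted p = 0.00382).

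Of the A2 set, 4 of 11 genes fell and 1 rose. Ptx3, a soluble pattern-recognition protein (chr3:66219910-66225805, GRCm38, plus strand), was at 32.1, 27.9 and 27.7 CPM with Omomyc, against 55.0, 53.9 and 44.7 CPM with vehicle, a change of -0.80 ± 0.07 (edgeR with the block, adjusted p = 0.00162). Clcf1 was at 115, 108 and 79.8 CPM, against 158, 141 and 128 CPM, a change of -0.51 ± 0.07. Tgm1, a transglutaminase, was at 4.69, 3.31 and 5.05 CPM, against 8.88, 6.09 and 7.03 CPM, a change of -0.75 ± 0.13. These 3 genes were lower with Omomyc without overlap. Cd14 was at 32.9, 44 and 70.2 CPM, against 48.7, 73.6 and 137 CPM, lower in each pair (adjusted p = 0.00343 in edgeR with the block). Ptgs2 rose: it was at 15.2, 18.5 and 54.2 CPM with Omomyc, against 9.37, 11.9 and 31.5 CPM with vehicle, a change of 0.71 ± 0.07 (edgeR with the block, adjusted p = 0.00328), higher in each pair while the groups overlapped.

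Of the A1 set, Srgn rose and Ggta1 fell. Srgn was at 22.2, 21.6 and 25.7 CPM with Omomyc, against 12.9, 14.7 and 19.6 CPM with vehicle, a change of 0.57 ± 0.09 (edgeR with the block, adjusted p = 0.0153) with no overlap. Ggta1, the gene that rose with age in sorted astrocytes, was at 183, 160 and 184 CPM, against 256, 218 and 202 CPM, a change of -0.35 ± 0.08 (edgeR with the block, adjusted p = 0.0424) that lost its call without the first or the second replicate number. The other 3 members that rose with age in sorted astrocytes at 10 over 3 months did not pass in culture. Aspg was at 5.56, 4.99 and 5.62 CPM with Omomyc, against 6.61, 8.32 and 6.62 CPM with vehicle, lower in each pair and without overlap (-0.41 ± 0.13, edgeR with the block, adjusted p = 0.131), and was called with the third replicate number left out (-0.50, edgeR with the block, adjusted p = 0.0373). Tm4sf1 was at 121, 99.6 and 92.6 CPM, against 129, 134 and 98.8 CPM, lower in each pair with overlap (-0.21 ± 0.08, edgeR with the block, adjusted p = 0.186), and Vim had a change of 0.02.

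Gfap, Vim, Serpina3n and Stat3 did not pass with the block. Gfap was at 3840, 3460 and 3540 CPM with Omomyc, against 4520, 4440 and 3610 CPM with vehicle (-0.21 ± 0.08, edgeR with the block, adjusted p = 0.205). Stat3 was at 362, 342 and 356 CPM, against 414, 379 and 386 CPM (-0.15 ± 0.06, edgeR with the block, adjusted p = 0.175). All 3 Omomyc libraries were below all vehicle libraries for Stat3, and for Gfap the groups overlapped. Serpina3n was at 508, 478 and 675 CPM, against 654, 555 and 670 CPM, and Vim at 6860, 6290 and 5650 CPM, against 6520, 6780 and 5290 CPM, both with overlap.

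**Figure D5:**
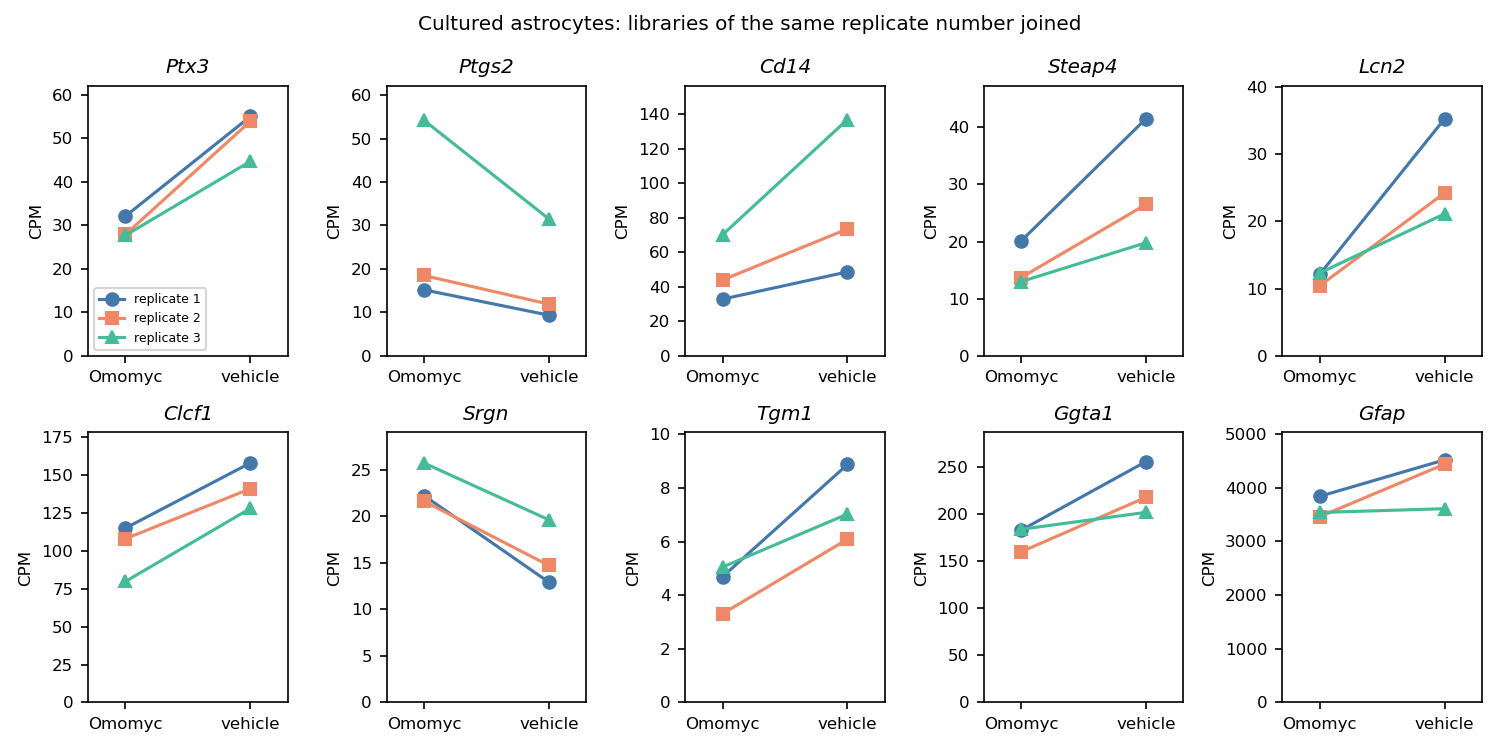
CPM of the 9 members called with the replicate block, and of Gfap, in cultured astrocytes with Omomyc (left) and vehicle (right), with the 2 libraries of a replicate number joined by a line. Every pair goes one way for each of the 9 genes: Ptgs2 and Srgn are higher with Omomyc, and the other 7 are lower.

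In the pathway around these genes, 5 of 19 STAT3 pathway genes fell with Omomyc and 0 rose in the fit with the block. Socs3 was at 40.4 ± 1.56 CPM with Omomyc and 57.3 ± 5.60 CPM with vehicle (SD, n = 3 each; change -0.50 ± 0.06), Cebpd, an acute-phase transcription factor gene, had a change of -0.48 ± 0.07, and Cntf, a cytokine gene of the interleukin-6 family, one of -0.64 ± 0.11. Of 11 other reactive genes 4 fell, led by the chemokine gene Ccl2, at 4.22 ± 0.487 CPM with Omomyc and 9.79 ± 0.582 CPM with vehicle (SD, n = 3 each; change -1.22 ± 0.10, edgeR with the block, adjusted p = 0.00158). Of 23 inducers and receptors, 4 fell, among them the NF-kappaB genes Nfkbia (-0.55 ± 0.08) and Nfkb2 (-0.38 ± 0.06), and Tgfbr1 rose (0.50 ± 0.07). Of 15 homeostatic genes 3 rose and 0 fell, Slc1a2 (0.42 ± 0.07), Glul (0.32 ± 0.06) and Slc4a4 (0.39 ± 0.08).

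The cultures also held microglial transcripts. The 12 microglial markers summed to 2310, 2760 and 4660 CPM with Omomyc, against 1990, 2430 and 3650 CPM with vehicle, and 6 of 12 were called higher with the block, among them P2ry12 (0.84) and Tmem119 (0.62). Side by side, and from different kits, Srgn averaged 28.5 CPM in sorted microglia and 4.28 CPM in sorted astrocytes at 3 months, and Cd14 16.8 CPM in microglia and 0.356 CPM in astrocytes. Ggta1 (48.4 and 9.79 CPM), Lcn2 (12.4 and 0.188 CPM) and Ptgs2 (6.28 and 1.04 CPM) were also higher in microglia. At 3 months Lcn2 was highest in the microglia library with 1920 CPM of neutrophil and monocyte markers. Its microglia mean at 10 months was 3.4 CPM. Ptx3 (0 and 1.43 CPM), Steap4 (0.359 and 0.506 CPM) and Tgm1 (0 and 0.423 CPM) were higher in astrocytes. Clcf1 is left out because its 0 in astrocytes is not read as absence. Markers of mural cells and fibroblasts summed to 3510 to 5340 CPM with Omomyc and 3710 to 6360 CPM with vehicle. In 3-month sorted astrocytes, from another kit, they summed to 305 to 412 CPM. With the block, 0 of 7 tested were called higher and 0 lower. Endothelial markers summed to 285 to 400 CPM with Omomyc and 217 to 309 CPM with vehicle. Of these, 2 of 8 tested were called higher, against 2.23% of all genes. The part of microglia and of these other cells in the changes with Omomyc was not tested.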

How the data were processed

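The tables that the authors deposited give unnormalized counts for each gene and library. Per the labels, astrocyte and O4 libraries came from a poly(A) kit with unique molecular identifiers, those of microglia from a 3′ end kit and those of cultures from another mRNA kit and adapters with identifiers. The authors also deposited TPM values for astrocytes and O4 cells, used only to order genes by level. Per the submitters' processing notes, reads went through featureCounts 2.0.1, UMI-tools 1.0.1, STAR 2.7.7a, fastp and DESeq2, in no stated order. The notes name GRCm38.p6, GRCm39 and mm10 without saying which table used which. Gene positions are those of GENCODE vM21 on GRCm38.

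Each table was fitted in edgeR 4.0.16 (R 4.3.3) with TMM factors, filterByExpr at a minimum count of 10 and the two-sided quasi-likelihood F test. The 3 ages of astrocytes shared a fit, and the 17 astrocyte and O4 libraries of 3 and 6 months were joined for the comparisons between sorts. Alternatives were RLE factors, no filter, DESeq2 1.42.0, the replicate number as a block, a fit of only the groups compared and each library left out. Same-numbered culture libraries deviated together (correlations 0.432 to 0.682, each of the 3 pairs over 0.1), so the number was used as a block. What same-numbered libraries share is not stated in the sources used here. Between other groups the correlations were between -0.195 and 0.176. The blocked culture fit is therefore given beside the fit without the block. Its own alternatives were added after seeing the data. In tests on simulated data the blocked culture fit called unchanged genes somewhat more often than its threshold implies.

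All 33 members are accounted for. Those called in a comparison, and Gfap, Vim, Serpina3n and Stat3, are given by library, range, mean or change, and up to 3 called genes with the smallest p are named from each list of pathway genes. The rule for the members uses gene names alone, but the set and the other lists were chosen with earlier results of these data known. No pair of replicates was alike within counting noise. The precision of each value is set by the spread between libraries.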

Additional observations from a re-analysis of the deposited data

Results flagged for a closer look

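Each tested member was examined in each sorted group of 4 or 5 libraries, which gave 111 sets of values. In 2 of these sets a library stood far from the others, and chance alone gives about 1 in 20. Both concerned Iigp1, an interferon-inducible GTPase gene with near-identical relatives. The first 6-month astrocyte library held 3.81 CPM, against 1.04 to 1.43 CPM in the other libraries of that age. The first 10-month microglia library held 21.9 CPM, against 5.64 to 7.43 CPM in the others.

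The change with age at 6 over 3 months differed between the astrocyte and the O4 sort for 14 members, by the difference of the age effects in a joint edgeR fit. It was higher in astrocytes for Ggta1 (0.82) and Cd44 (1.67). It was lower in astrocytes for Osmr (-2.73), Ptgs2 (-2.57), Srgn (-2.23), S1pr3 (-2.09), Serping1 (-1.89), Gbp2 (-1.89), Amigo2 (-1.84), Tm4sf1 (-1.83), Emp1 (-1.60), S100a10 (-1.58), Vim (-1.46) and Psmb8 (-1.29), whose difference lost its call under several alternatives. The endothelial markers moved the same way in the O4 libraries, and their part was not tested.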

How the results depend on the processing

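None of the results reversed under any alternative run. Calls kept under every alternative were 1 of 4 in astrocytes at 10 over 3 months (Aspg), 1 of 4 at 6 over 3 months (Ggta1), 14 of 16 in O4 cells, 19 of 20 and 16 of 20 between the sorts at 3 and 6 months, 13 of 14 for the difference of age effects and 8 of 9 for Omomyc with the replicate block. Members called under some alternative and not in the reported fit numbered 1, 1, 3, 3, 1, 5 and 4 in these comparisons. For Omomyc with the block, every alternative counted here kept the block. Without the block, edgeR called 0 of 32 members. Without the filter, 1 member and 578 genes were called in astrocytes at 10 over 6 months and 3 members and 730 genes in microglia. DESeq2 called 609 genes at 10 over 6 months, 748 in microglia, and 2 members and 97 genes with Omomyc. With the replicate block there were 56 calls at 10 over 6 months, 211 in microglia, and 9 members and 656 genes with Omomyc. With a library left out, members called ranged from 1 to 4 at 10 over 3 months, where leaving out the first or the fourth 3-month library gave 2, the first 10-month library 1 and the second 2. They ranged from 1 to 4 at 6 over 3 months, with 1 without the first or the fourth 3-month library and 2 without the third or the fourth 6-month library, from 14 to 19 in O4 cells, and from 0 to 2 in microglia. All genes called ranged from 1052 to 3713 at 10 over 3 months, 1161 to 2637 at 6 over 3 months, 11 to 320 at 10 over 6 months, 2214 to 4925 in O4 cells, 51 to 396 in microglia and 0 to 1 with Omomyc, and from 566 to 1130 with the block, where leaving out the second replicate number gave 1085 and the third 1130. The cause of these moves was not tested. With plain CPM, 20 members in place of 18 were highest in the astrocyte sort at 3 months. Where 10 months was left with 1 library, it was assumed to vary like the other ages, and at their low counts 8 members were not tested in sorted astrocytes (Lcn2, Timp1, Steap4, Sphk1, Slc10a6, Tgm1, Cd14 and Clcf1).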

Other observations

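Some members stood together in single libraries. The fifth 6-month astrocyte library was the highest of the 11 astrocyte libraries for Tm4sf1 (127 CPM), Cd109 (74.0 CPM), Emp1 (14.6 CPM), S1pr3 (20.8 CPM), Osmr (16.8 CPM) and Cd44 (18.1 CPM), while its Gfap was at 161 CPM and its Aspg at 4.33 CPM, within the range of its age. In O4 cells, the first 6-month library was the lowest of its age for Vim (39.9 CPM), Tm4sf1 (12.7 CPM), Srgn (3.50 CPM), Gbp2 (2.33 CPM), Cd44 (1.08 CPM) and the sum of endothelial markers (302 CPM), and the highest for Lcn2 (20.7 CPM). That library was not the lowest of its age for Osmr, S1pr3 or Ptgs2, and the part of vessel cells was not tested.

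Transthyretin transcripts (Ttr), which mark the choroid plexus, averaged 658, 148 and 12.9 CPM in astrocyte libraries of 3, 6 and 10 months. The list of 7 markers of choroid plexus and ependyma moved both ways in these libraries. At 10 over 3 months, 2 were called higher and 3 lower (median change 0.32). At 6 over 3 months, 3 were called higher and 2 lower (median change 0.26). The cause of the fall of Ttr was not tested.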
